A study of Mus musculus with 10 samples.

Results

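The cone opsin and cone phototransduction genes of the mouse retina are described here in 10 genes, *Opn1sw*, *Opn1mw*, *Gnat2*, *Gnb3*, *Gngt2*, *Pde6c*, *Pde6h*, *Cnga3*, *Cngb3* and *Arr3*. They were chosen by name, for their known role in cones, out of the 54532 genes of the expression table, and all 10 were found and measured. Their RNA was measured by RNA-seq of whole neural retina from BALB/c mice aged 2 months, an albino strain without the melanin that dims light inside the eye. All of the mice first spent 12 hr in darkness. They were then placed for 1 day under normal light of 200 lux (NL, 5 retinas, numbered 1, 4, 5, 7 and 8) or under intense light of 15000 lux (LD, 5 retinas, numbered 1, 4, 6, 7 and 8). Mice of both groups had no other treatment or allele named in the labels. The labels do not say which animal each retina came from, so p-values measure the spread between these samples.

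Cones are the photoreceptors of daylight and color vision, and they are greatly outnumbered by rods in the mouse retina. A cone opsin excited by light activates the cone transducin, a G protein of an alpha, a beta and a gamma subunit, and the alpha subunit switches on the cone phosphodiesterase. The phosphodiesterase breaks down cyclic GMP, the channels held open by cyclic GMP close, and the cell hyperpolarizes, until arrestin binds the opsin and ends the signal. Rods use a parallel set of proteins from sister genes, so that nearly each cone gene has a rod counterpart. Mouse cones hold a short-wavelength opsin (*Opn1sw*) and a middle-wavelength opsin (*Opn1mw*), often both in the same cell.

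Expression is given in FPKM, fragments per kilobase of gene scaled to library size, which sets genes of different length side by side. Reads recovered from these values ran from 21343389 to 26832535 in the NL libraries and from 18965090 to 23378090 in the LD libraries. Cone members had 65 to 56795 reads in a retina. Of the 5 LD retinas, LD-4 and LD-6 stood apart, since their values were the lowest of the LD group in 8 of the 10 cone genes and in all 9 rod counterparts compared here. They were also among the 3 closest pairs of retinas (with NL-5 and NL-7, and LD-1 and LD-7), with a chi-square per gene of 2.52 to 3.41 between their reads, against 10.9 to 38.5 for the other 17 pairs of a group. Whether retinas of a close pair came from the same mouse was not tested. Retinal markers were present: the 6 ganglion cell markers summed to 217 to 255 FPKM in the NL and 210 to 241 FPKM in the LD retinas, the 6 amacrine markers to 143 to 172 and 129 to 160 FPKM, and the 6 lens markers to under 1 FPKM in every retina. Pigment epithelium markers were present, with sums of 54.7 to 143 FPKM in the NL and 66.2 to 128 FPKM in the LD retinas.

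After LD, 4 of the 10 cone genes fell and 1 rose. *Opn1sw*, *Opn1mw*, *Arr3* and *Gnat2* were lower, to between 17.5% and 37.7% of the NL mean, and *Gnb3*, the gene of the cone transducin beta subunit, was at 242% of its NL mean. A gene was called changed when limma gave an adjusted p below 0.01 and the groups differed by more than 2-fold on log2(FPKM + 0.1), a scale that understates changes of genes with low FPKM. By this rule 2.37% of the 24508 genes tested were lower and 4.13% were higher. The other 5 members were at 53.4% to 73.0% of their NL means and were not called. The median log2 fold change was -0.91 over the 10 cone genes and -0.01 over all genes tested. In bulk tissue, fewer cones and less RNA per cone cannot be told apart.

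**Figure D1:**
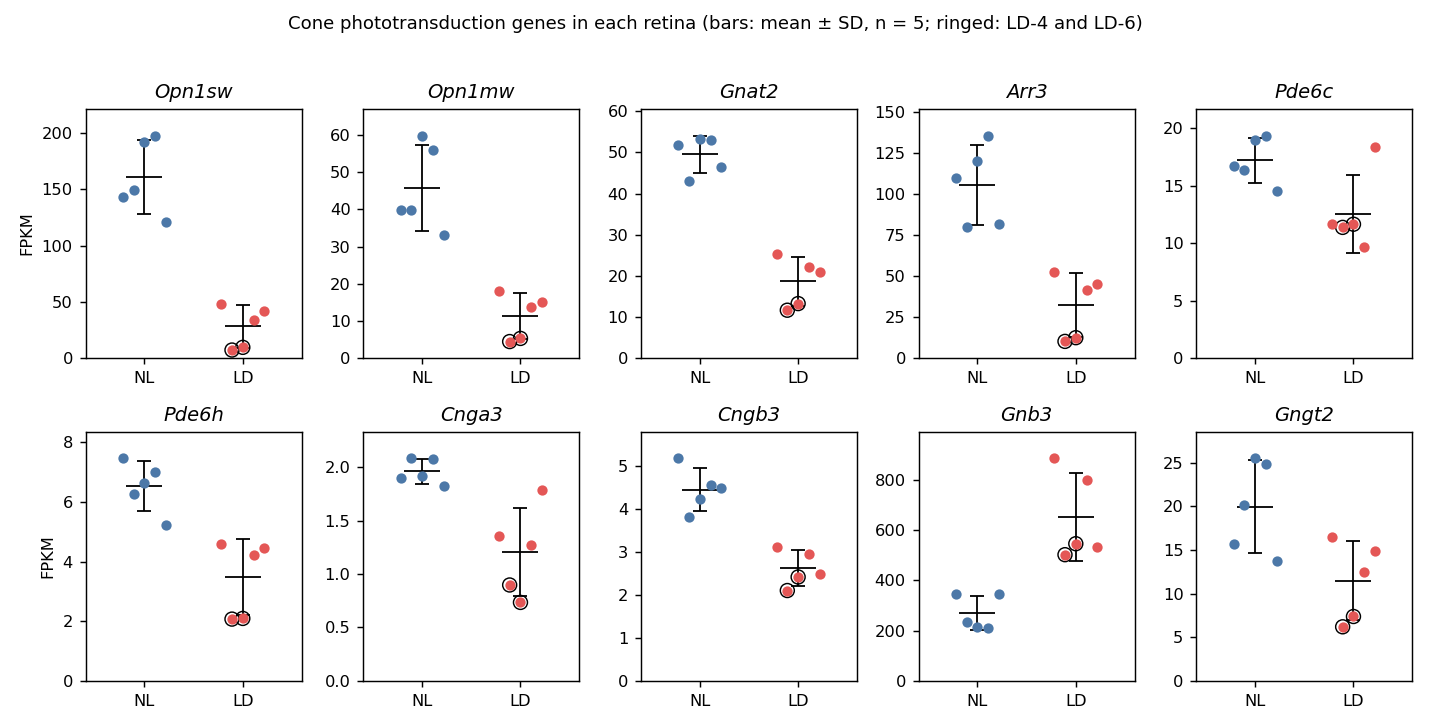
FPKM of each of the 10 cone genes (vertical axes, each from 0) in the 5 NL and the 5 LD retinas, with 1 point per retina and bars for the mean ± SD. LD points lie below all NL points in 7 genes and above them in *Gnb3*, the groups overlap in *Pde6c* and *Gngt2*, and the ringed retinas LD-4 and LD-6 are the lowest LD points in most panels.

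The sequence just upstream of 3 of the 4 genes that fell is shown as a description. Whether its motifs bear on the change of these genes was not tested. Windows of 250 bases before the gene start were taken from RefSeq (GRCm38.p6) and are printed 5′ to 3′ on the strand of the gene. They were searched on both strands for TAATCC, which reads as GGATTA on the other strand, the core bound by the photoreceptor factor CRX, and for AGGTCA, which reads as TGACCT there, the half-site of nuclear receptors such as those for thyroid hormone and retinoid X. A close variant, TAATCT, was added after the sequences had been read. Capitals mark these letters, which do not overlap each other in any window. The window of *Opn1sw*, chr6:29380514-29380763 on the minus strand, lies in an intron of a longer annotated transcript of the gene and holds AGGTCA once on each strand and TAATCT once. For *Gnat2* only 30 bases around the motif are printed, chr3:108093035-108093064 on the plus strand, since the window is covered by the first exon of a longer GENCODE transcript. For *Arr3* the stretch is chrX:100605247-100605496 on the plus strand, between genes.
Opn1sw: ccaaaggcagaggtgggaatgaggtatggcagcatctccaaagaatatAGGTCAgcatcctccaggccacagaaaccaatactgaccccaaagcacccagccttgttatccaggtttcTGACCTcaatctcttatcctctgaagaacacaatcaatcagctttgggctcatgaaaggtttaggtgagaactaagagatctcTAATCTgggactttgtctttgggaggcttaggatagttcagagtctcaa
Gnat2: gggacaatccccGGATTAggaaggagctct
Arr3: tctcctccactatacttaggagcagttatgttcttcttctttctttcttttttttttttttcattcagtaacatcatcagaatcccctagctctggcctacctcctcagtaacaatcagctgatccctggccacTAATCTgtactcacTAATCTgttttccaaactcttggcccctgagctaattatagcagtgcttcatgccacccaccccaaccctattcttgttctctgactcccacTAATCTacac
The *Arr3* window holds TAATCT 3 times, ending 111, 97 and 5 bases before the start, and the *Gnat2* window holds GGATTA from 19 to 14 bases before it. Of 32851 RefSeq windows of this length, 6.25% hold TAATCC, 14.0% hold AGGTCA and 7.31% hold TAATCT on either strand. Windows were given for 6 of the 10 members, and those of *Opn1mw*, *Pde6h* and *Cnga3*, not printed, held none of these motifs.

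The opsin genes fell by the largest amounts of the 10. *Opn1sw*, on chromosome 6 from 29376671 to 29388468 (GRCm38, minus strand), was at 144, 150, 192, 198 and 121 FPKM in NL-1, NL-4, NL-5, NL-7 and NL-8. After LD it was at 48.2, 7.19, 9.58, 33.8 and 42.3 FPKM in LD-1, LD-4, LD-6, LD-7 and LD-8. Each LD retina was below each NL retina, and within the LD group LD-4 and LD-6 were several times lower than the others. The means were 161 ± 33.0 and 28.2 ± 18.8 FPKM (SD, n = 5 each), which is a log2 change of -2.86 (SE, the standard error, 0.51, limma adjusted p = 0.00194). The middle-wavelength opsin gene *Opn1mw*, on the X chromosome from 74127464 to 74150760, was at 33.1 to 59.8 FPKM in the NL retinas. In the LD retinas its values were 17.9, 4.45, 5.29, 13.9 and 15.1 FPKM in the same order, again lowest in LD-4 and LD-6. Its log2 change was -2.18 (SE 0.39, limma adjusted p = 0.00191), from 45.7 ± 11.6 to 11.3 ± 6.08 FPKM (SD, n = 5 each). Without LD-4 and LD-6 both opsins still passed the rule, at log2 fold changes of -1.95 for *Opn1sw* and -1.51 for *Opn1mw*. With the 3 closest pairs of retinas averaged, which leaves 4 NL and 3 LD samples, limma's adjusted p rose to 0.0148 for *Opn1sw* (1.28e-04 to 0.0269 across the alternatives) and to 0.0151 for *Opn1mw* (4.77e-04 to 0.0244).

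*Opn1sw* fell more than *Opn1mw*. The ratio of *Opn1sw* to *Opn1mw* in FPKM was 3.61, 3.78, 3.22, 3.53 and 3.67 in the NL retinas and 2.69, 1.62, 1.81, 2.44 and 2.80 in the LD retinas. The LD ratios did not overlap the NL ratios. Mean ratios were 3.56 ± 0.213 and 2.27 ± 0.529 (SD, n = 5 each), and on the log2 scale of FPKM + 0.1 the ratio changed by -0.69 (two-sided exact permutation test over retinas, p = 0.00794, the smallest that 5 against 5 allow, and adjusted p = 0.0127 over 16 gene pairs). Without LD-4 and LD-6 the change was -0.44 (adjusted p = 0.0286, exact permutation test). *Opn1sw* shares 397 of its 2557 exonic bases with *Calu* of the opposite strand, which was at 29.2 ± 2.01 FPKM in NL and 28.2 ± 1.15 FPKM in LD (SD, n = 5 each), and whether the counting used strand is not given in the sources used here.

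**Figure D2:**
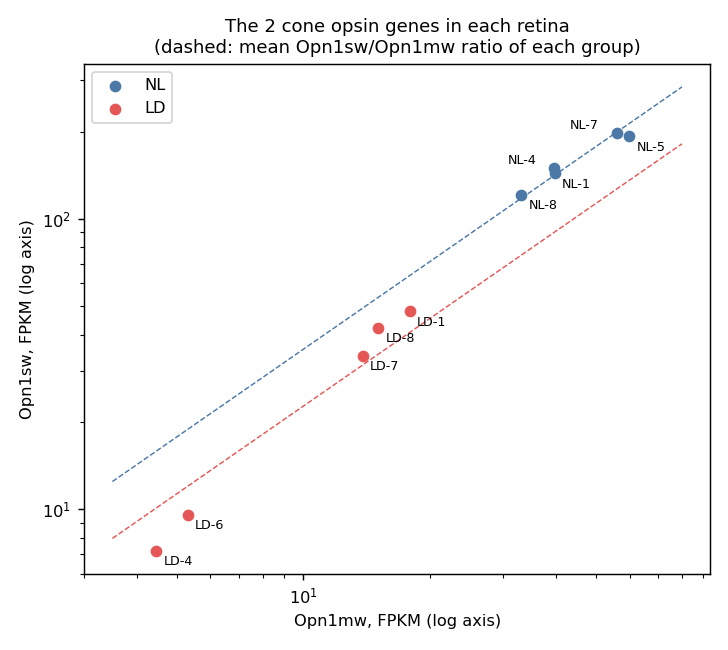
FPKM of *Opn1sw* (vertical, log axis) against *Opn1mw* (horizontal, log axis) with 1 labelled point per retina and dashed lines at the mean ratio of each group. The 5 NL points lie along the ratio of 3.56 and the 5 LD points lie lower, with LD-4 and LD-6 farthest down at ratios of 1.62 and 1.81.

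The genes of the 3 subunits of cone transducin did not change together in whole-retina RNA. The beta subunit gene *Gnb3* is also used by other cells, as given below. The alpha subunit gene *Gnat2* (chromosome 3, 108092789 to 108101432) was at 43.1 to 53.4 FPKM in the NL retinas. It fell to 25.4, 11.6, 13.3, 22.1 and 20.9 FPKM in LD-1, LD-4, LD-6, LD-7 and LD-8. Its log2 change was -1.46 (SE 0.20, limma adjusted p = 3.57e-04), and it was called in each of the 24 alternatives. The table also holds a short pseudogene of *Gnat2* on chromosome 16, and reads shared between the 2 could not be told apart. The gamma subunit gene *Gngt2*, on chromosome 11 from 95837216 to 95845734, was at 15.6, 20.1, 25.5, 24.9 and 13.7 FPKM in the NL retinas and at 16.5, 6.20, 7.38, 12.5 and 14.9 FPKM in the LD retinas. These ranges overlap, and the log2 fold change of -0.85 was not past the threshold (SE 0.29, limma adjusted p = 0.0510). *Gngt2* shares 234 of its 1877 exonic bases with *Abi3* of the opposite strand, at 0.109 ± 0.0539 FPKM in NL and 0.209 ± 0.0629 FPKM in LD (SD, n = 5 each).

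*Gnb3*, the beta subunit gene, is on chromosome 6 from 124834240 to 124840275 on the minus strand and went the other way. It was at 344, 236, 214, 211 and 344 FPKM in NL-1, NL-4, NL-5, NL-7 and NL-8, and at 885, 502, 546, 797 and 532 FPKM in LD-1, LD-4, LD-6, LD-7 and LD-8. Each LD retina was above each NL retina, and LD-4 and LD-6 were also among the lower LD retinas here. The means were 270 ± 68.4 and 652 ± 176 FPKM (SD, n = 5 each), a log2 change of 1.27 (SE 0.21, limma adjusted p = 0.00127). Without LD-4 and LD-6 it was 1.45 (adjusted p = 0.00270, limma), and with the closest pairs averaged 1.15 (adjusted p = 0.0175, range over the alternatives 1.08e-04 to 0.0204). The log2 ratio of *Gnat2* to *Gnb3* moved by -2.73, from -2.41 ± 0.41 to -5.14 ± 0.30 (SD, n = 5 each, adjusted p = 0.0127, exact permutation test). On the linear scale this ratio was 0.188 under NL and 0.0283 after LD. The log2 ratio of *Gnat2* to *Gngt2* moved by -0.61 (adjusted p = 0.0127, exact permutation test), and without LD-4 and LD-6 by -0.70 (adjusted p = 0.0659).

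*Gnb3* is also used by ON bipolar cells, the second-order neurons that receive cone and rod input through a metabotropic receptor. Of 11 ON bipolar markers, limma called 0 higher and 1 lower, with a median log2 fold change of -0.08. At an unadjusted p under 0.05, 0 of 11 were higher, and limma-voom on the recovered reads called 0 higher. The gamma subunit gene *Gng13*, the partner of *Gnb3* in these cells, was at 72.9 ± 9.89 FPKM in NL and 70.1 ± 10.3 FPKM in LD (SD, n = 5 each, adjusted p = 0.766, limma). The receptor gene *Grm6* was at 52.2 ± 2.99 and 42.8 ± 9.03 FPKM (adjusted p = 0.0982, limma) and the channel gene *Trpm1* at 40.2 ± 2.82 and 46.1 ± 8.94 FPKM (SD, n = 5 each, adjusted p = 0.333, limma). The marker that fell was *Lrit3*, from 30.8 ± 1.46 to 13.9 ± 4.36 FPKM (adjusted p = 7.24e-04, limma), which photoreceptors also express. The summed level of the 11 markers was 435 to 524 FPKM in the NL and 360 to 487 FPKM in the LD retinas. Whether the higher *Gnb3* RNA lay in cones, in ON bipolar cells or in both cannot be told apart in bulk retina. The other G protein beta genes, looked at after the value of *Gnb3* was seen, gave log2 fold changes of -2.08 for *Gnb1*, -1.15 for *Gnb5*, 0.77 for *Gnb2* and -0.12 for *Gnb4*. No gene of the other strand overlaps *Gnb3*, and its same-strand neighbor *P3h3* was at 13.7 ± 2.23 FPKM in NL and 21.3 ± 2.78 FPKM in LD (SD, n = 5 each, adjusted p = 0.00233, limma). *Cdca3*, the neighbor on its other side, was at 1.23 ± 0.329 and 2.24 ± 0.264 FPKM (SD, n = 5 each, adjusted p = 0.00466, limma). Both neighbors were higher in LD by less than 2-fold.

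**Figure D3:**
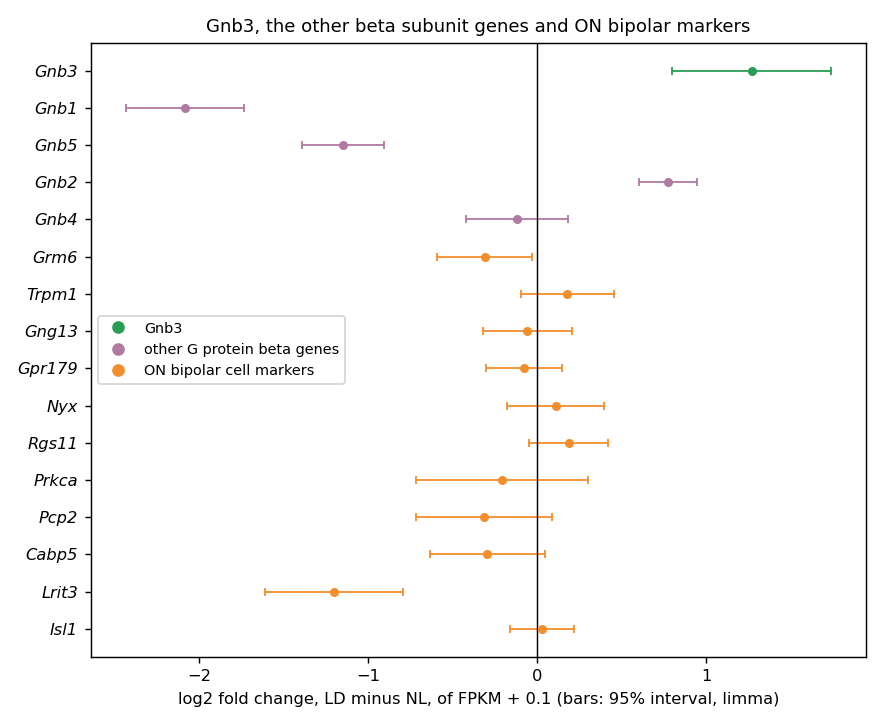
Log2 fold change, LD minus NL, on FPKM + 0.1 (horizontal axis, with 95% intervals from limma) of *Gnb3*, the other 4 G protein beta genes and 11 ON bipolar markers. *Gnb3* is at 1.27, *Gnb1* at -2.08, and the markers lie between -1.20 (*Lrit3*) and 0.18 (*Rgs11*).

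Neither phosphodiesterase gene was called. *Pde6c*, the catalytic subunit of the cone phosphodiesterase, is on chromosome 19 from 38132781 to 38183958. It was at 14.6 to 19.4 FPKM in the NL retinas and at 11.7, 11.4, 11.6, 9.64 and 18.4 FPKM in LD-1, LD-4, LD-6, LD-7 and LD-8. LD-8 lay within the NL range and the other 4 LD retinas lay below it. The log2 fold change of -0.48 had a 95% interval of -0.82 to -0.14 and was not called (adjusted p = 0.0387, limma), and this is the smallest change among the members. Without LD-8 it was -0.62 (limma adjusted p = 0.00112), still under 2-fold. The inhibitory subunit gene *Pde6h*, on chromosome 6 from 136923832 to 136968865, was at 5.25 to 7.47 FPKM in the NL retinas and at 4.58, 2.07, 2.10, 4.24 and 4.44 FPKM in the LD retinas. These groups did not overlap, and *Pde6h* was just short of both thresholds with a log2 change of -0.96 (SE 0.24, limma adjusted p = 0.0126). It was called when LD-1 was left out, at -1.08 (adjusted p = 0.00875, limma). *Pde6h* shares 136 of its 7846 exonic bases with *Arhgdib* of the opposite strand, a gene that rose from 0.557 ± 0.173 to 2.42 ± 0.554 FPKM (SD, n = 5 each, adjusted p = 1.21e-04, limma).

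The 2 cone channel genes had the lowest levels of the members. *Cnga3*, the alpha subunit of the cone channel, is on chromosome 1 from 37214434 to 37263384 and was at 1.82 to 2.08 FPKM in the NL retinas. It was at 1.36, 0.897, 0.734, 1.28 and 1.78 FPKM in LD-1, LD-4, LD-6, LD-7 and LD-8, from 65 to 157 reads. The groups were separated by the narrow gap between LD-8 and NL-8, and the log2 fold change of -0.71 was not called (SE 0.20, limma adjusted p = 0.0232). *Cngb3*, the beta subunit, is on chromosome 4 from 19280850 to 19510623 and was at 3.81 to 5.18 FPKM in the NL retinas and 2.11 to 3.13 FPKM in the LD retinas. It overlaps the pseudogene *Gm11877*, at 0.400 ± 0.294 and 0.115 ± 0.0571 FPKM (SD, n = 5 each). Its log2 change of -0.75 (SE 0.12, limma adjusted p = 8.90e-04) had the second smallest adjusted p of the members but was under 2-fold. The log2 ratio of *Cnga3* to *Cngb3* was -1.14 ± 0.21 in the NL and -1.10 ± 0.41 in the LD retinas (SD, n = 5 each), and no change was detected (adjusted p = 0.897, exact permutation test).

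*Arr3*, cone arrestin, is on the X chromosome from 100605497 to 100618493. It was at 109, 79.6, 120, 135 and 81.5 FPKM in the NL retinas and at 52.1, 10.2, 12.4, 41.2 and 44.99 FPKM in the LD retinas. All LD values were below the NL values, and the 2 lowest, in LD-4 and LD-6, were well below those of the other LD retinas. The log2 change was -1.97 (SE 0.46, limma adjusted p = 0.00854), close to the threshold, and 14 of the 24 alternatives put the adjusted p above 0.01 (range 0.00253 to 0.0459). The call was lost when LD-4 (adjusted p = 0.0135), LD-6 (0.0197) or any of the NL retinas was left out (0.0147 to 0.0235, limma), and it held without both LD-4 and LD-6, at -1.16 (adjusted p = 0.00253).

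All 5 LD values lay below all 5 NL values in 7 members, where 10.6% of all genes tested had LD retinas below all NL retinas. In *Gnb3* the LD values lay above all NL values, and the share of all genes that did so is not given here. The exact permutation p was 0.00794 for each of these 8 members. At an adjusted p under 0.01 with no minimum fold, 5 members were lower, where 7.74% of all genes were. Leaving out both LD-4 and LD-6 kept the same 5 genes called, *Opn1sw*, *Opn1mw*, *Gnat2* and *Arr3* lower and *Gnb3* higher. Averaging the closest pairs left only *Gnat2* called (-1.40, adjusted p = 0.00396, limma).

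Under NL the mean levels ran from *Gnb3* (270 FPKM) over *Opn1sw* (161), *Arr3* (105), *Gnat2* (49.5), *Opn1mw* (45.7), *Gngt2* (19.97), *Pde6c* (17.2), *Pde6h* (6.53) and *Cngb3* (4.46) to *Cnga3* (1.96 FPKM). Neighbors overlapped in their ranges for *Opn1sw* and *Arr3*, for *Gnat2* and *Opn1mw*, and for *Gngt2* and *Pde6c*, and the other neighbors were separate. After LD the order became *Gnb3* (652 FPKM), *Arr3* (32.2), *Opn1sw* (28.2), *Gnat2* (18.7), *Pde6c* (12.6), *Gngt2* (11.5), *Opn1mw* (11.3), *Pde6h* (3.49), *Cngb3* (2.62) and *Cnga3* (1.21 FPKM). Only *Gnb3* and *Cnga3* were then separate from their neighbors. Both orders depend on the gene lengths used for FPKM. Under NL, *Pde6h* (7846 bases) had 1046 to 1253 reads and *Pde6c* (2970 bases) had 1035 to 1221.

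Most rod counterparts fell further than the cone gene they were set against. All 9 rod genes compared were called lower, with a median log2 fold change of -2.06, from -2.71 for the transducin alpha gene *Gnat1* to -1.26 for *Pde6a*. Under NL each rod gene was at a higher level than the cone gene it was set against. After LD this held in all pairs but *Gnb3* and *Gnb1*. The highest rod gene compared, *Gnat1*, was at 2874 ± 260.4 FPKM in NL and 464 ± 174 FPKM in LD (SD, n = 5 each). The per-retina log2 ratio of a cone gene to its rod counterpart was compared between the groups in 9 pairs, and it rose in 8 of them. These pairs hold neither *Opn1sw* (-2.86) nor *Opn1mw* (-2.18), and *Pde6c* was set against both *Pde6a* and *Pde6b*. The median log2 fold change of all genes tested was -0.01, so an unchanged gene would also rise against these rod genes. None of the 9 ratios fell at the threshold of 0.05.
Among the channel and inhibitor pairs, the log2 ratio rose by 1.51 for *Cnga3* to *Cnga1*, by 1.47 for *Pde6h* to *Pde6g* and by 1.06 for *Cngb3* to *Cngb1* (adjusted p = 0.0127 each, exact permutation test). For the transducin alpha genes *Gnat2* and *Gnat1* the ratio went from -5.86 ± 0.15 to -4.60 ± 0.21 (SD, n = 5 each), a rise of 1.25 (adjusted p = 0.0127). The gamma pair *Gngt2* and *Gngt1* rose by 1.04 and *Pde6c* to *Pde6b* by 1.58 (adjusted p = 0.0127 each, exact permutation test). *Pde6c* to *Pde6a* rose by 0.78 (adjusted p = 0.0346, exact permutation test), which was not past the threshold without LD-4 and LD-6 (0.0659) or without any 1 of the NL retinas (0.0808 to 0.104). The beta pair changed most: *Gnb3* was below *Gnb1* under NL (ratio 0.257) and above it after LD (ratio 2.62), a rise of 3.35 on the log2 scale (adjusted p = 0.0127).

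The arrestin gene had no detectable shift against its rod counterpart. The log2 ratio of *Arr3* to *Sag* moved by -0.57 (adjusted p = 0.190), and by -0.09 without LD-4 and LD-6 (adjusted p = 0.732, exact permutation test).

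**Figure D4:**
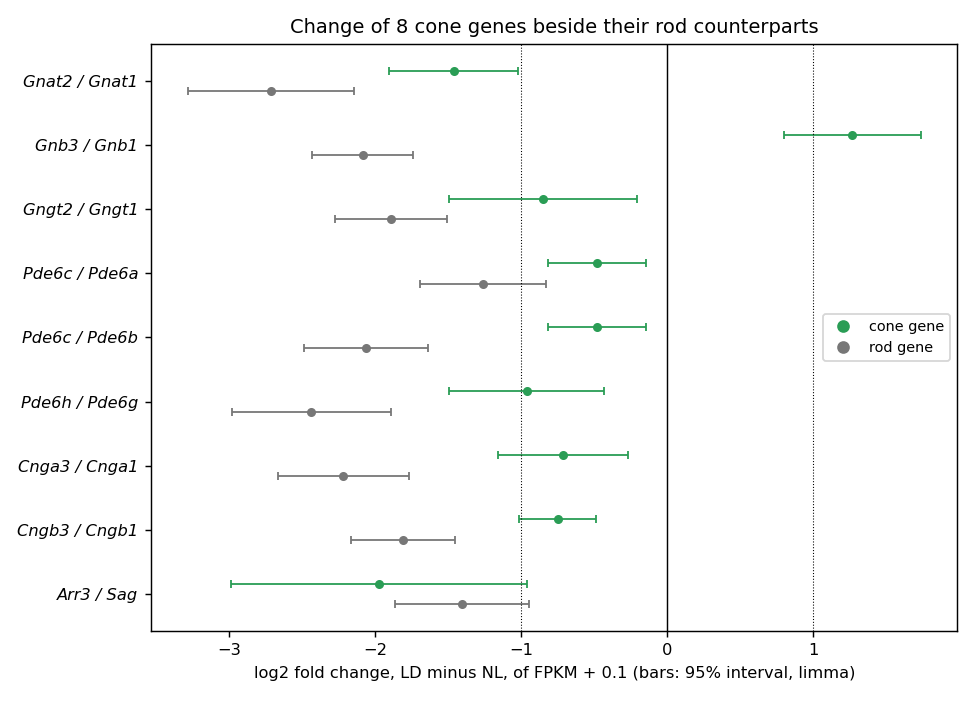
Log2 fold change, LD minus NL, on FPKM + 0.1 (horizontal axis, points with 95% intervals from limma) of 8 cone genes (green) beside their rod counterparts (gray), with dotted lines at 2-fold. Rod genes lie from -2.71 to -1.26, cone channel, phosphodiesterase and gamma subunit genes lie nearer to 0, and *Gnb3* lies at 1.27.

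Within the groups, the cone genes varied together from retina to retina. After the group mean was taken off, the correlation of log2(FPKM + 0.1) over the 10 retinas had a median of 0.76 over the 45 pairs of members, as a description, since retinas share depth and tissue make-up across genes. It was 0.99 for *Opn1sw* and *Opn1mw* and 0.98 for *Opn1sw* and *Arr3*. LD-4 and LD-6, which are also a close pair, weigh heavily in these correlations. From its NL mean, *Opn1sw* lay at -4.44 and -4.03 in LD-4 and LD-6 on the log2 scale. The other LD retinas lay at -2.23 to -1.71 and the NL retinas at -0.38 to 0.32. The correlations without LD-4 and LD-6 were not tested. *Pde6c* was correlated least with the other members that were below their NL means, at -0.19 with *Cngb3* and 0.19 with *Gnat2*. *Gnb3* had a median of 0.34 over its 9 pairs, from -0.54 with *Pde6c* to 0.80 with *Cngb3*. The mean deviation of the cone genes and that of the 9 rod genes correlated at 0.98 over the 10 retinas. Among 12418 other protein-coding genes of at least 1 FPKM, the 5 most like the mean deviation of the members were *Grk1* (0.99), *Nrl* (0.99), *Rtbdn* (0.99), *Guca1b* (0.99) and *Fam57b* (0.98). *Grk1*, the opsin kinase of mouse rods and cones, fell from 216 ± 15.7 to 75.3 ± 22.7 FPKM (SD, n = 5 each, log2 fold change -1.57, adjusted p = 1.64e-04, limma), and *Nrl*, the rod-determining transcription factor, from 296 ± 21.9 to 49.7 ± 16.8 FPKM (log2 fold change -2.64, adjusted p = 1.00e-05).

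**Figure D5:**
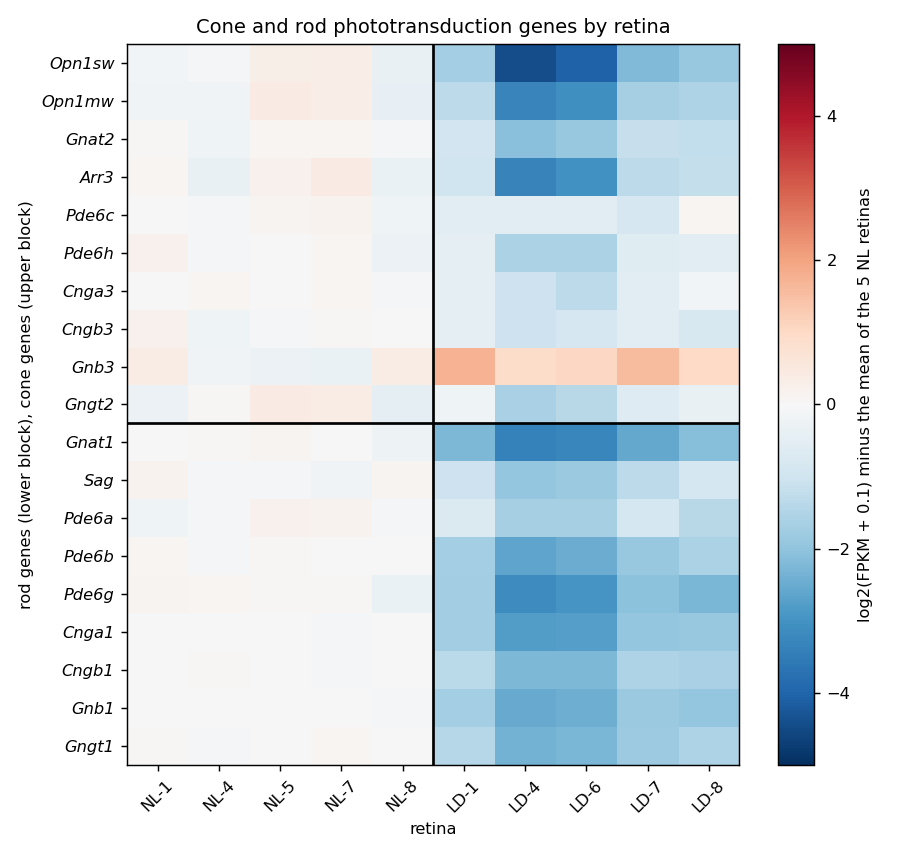
Log2(FPKM + 0.1) of each of the 10 cone genes (upper block) and 9 rod genes (lower block) in each retina (columns) minus the mean of the 5 NL retinas, blue for lower and red for higher. LD-4 and LD-6 are the darkest LD columns, *Opn1sw* in LD-4 reaches -4.44, and *Gnb3* is the only row higher in all LD retinas.

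Other genes of the cone signal were read from lists. Of 14 shut-off and calcium feedback genes, many of which rods and cones share, 12 fell and none rose, with a median log2 fold change of -1.64. They include *Rgs9* and *Gnb5*, parts of the complex that ends transducin activity (-1.12 and -1.15), and the guanylate cyclase *Gucy2e* (-1.22). The exchanger gene *Slc24a2*, which is also on the cone-enriched list below, was at 8.85 ± 0.455 FPKM in NL and 8.11 ± 0.462 FPKM in LD (SD, n = 5 each, adjusted p = 0.118, limma).
Of 9 other cone-enriched genes found, 2 fell, *Kcne2*, a potassium channel subunit (-1.16), and *Gulo* (-1.06), and none rose. The median log2 fold change of these 9 was -0.63. *Ccdc136* and *Rxrg* were lower at an adjusted p under 0.01 but by less than 2-fold, at log2 fold changes of -0.66 and -0.57. *Fam19a3* was at 31.6 ± 3.17 FPKM in NL and 36.1 ± 1.64 FPKM in LD (SD, n = 5 each, adjusted p = 0.0591, limma), and *Thrb*, the thyroid hormone receptor that sets the middle-wavelength opsin in cones, had a log2 fold change of -0.67 (adjusted p = 0.0112, limma).
Of 9 photoreceptor transcription factors, 3 fell, *Crx* (-1.27), *Nrl* (-2.64) and *Nr2e3* (-2.30), the last 2 being rod factors. *Otx2*, *Rora*, *Rorb* and *Rxrg* were lower at an adjusted p under 0.01 and under 2-fold. *Neurod1* was at 141 ± 15.5 and 163 ± 39.2 FPKM (SD, n = 5 each, adjusted p = 0.459, limma).

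Markers of other cells that moved with these genes are given as values. Of 6 microglia and macrophage markers, limma called 3 higher, *Cx3cr1*, *Aif1* and *Cd68*, and none lower. At an unadjusted p under 0.05, 4 of the 6 were higher, and *P2ry12* was lower. *P2ry12* was at 65.0% of its NL mean (log2 fold change -0.74, adjusted p = 0.122, limma). The 6 markers summed to 9.90 to 12.9 FPKM in the NL and 15.9 to 31.9 FPKM in the LD retinas. Of 6 Muller glia markers, *Glul* fell (-2.09), from 711 ± 94.8 to 165 ± 8.77 FPKM (SD, n = 5 each), and the other 5 were not called, with a median log2 fold change of 0.03 over the 6. The summed level was 1048 to 1281 FPKM under NL and 506 to 714 FPKM after LD, and *Glul* made up most of the difference. *Slc1a3* was at 143% of its NL mean, and its groups did not overlap (adjusted p = 0.0109, limma), *Kcnj10* was at 138%, *Aqp4* at 107%, *Dkk3* at 100.2% and *Rlbp1* at 73.0%. Of 8 pigment epithelium markers, *Trf* rose (2.06) and the others were not called by limma, with a median log2 fold change of 0.37. At an unadjusted p under 0.05, 3 of the 8 were higher, and *Rpe65* was lower. *Rpe65* was at 57.0% of its NL mean (log2 fold change -0.78, adjusted p = 0.128, limma). With limma-voom 2 were called higher, *Trf* and *Slc6a20a*, the latter at 183% of its NL mean. Of the 6 amacrine, 6 ganglion and 4 horizontal cell markers found, limma called 0, and 1, 0 and 3 of them had an unadjusted p under 0.05, while limma-voom called 1 higher, the horizontal cell marker *Onecut2* (1.03 to 1.22 FPKM in the NL and 1.82 to 2.40 FPKM in the LD retinas, log2 fold change 0.88 in limma). The horizontal cell markers *Lhx1* and *Calb1* were lower, with log2 fold changes of -0.55 and -0.39 (adjusted p = 0.0218 and 0.0507, limma). The part of these cells in the levels of the cone genes was not tested.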

How the data were processed

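A single table was deposited by the authors, with FPKM of 54532 genes in each of 10 retinas, gene positions and lengths. A sequencing company made and normalized it. RNA was extracted with Trizol and libraries were made with an Illumina TruSeq kit, the paper and the labels naming different Illumina instruments (HiSeq and NovaSeq). Per the submitters' processing notes the tools were Bowtie2 2.0.6 and TopHat2 2.0.9, and a build mm8 is named with no role given. The positions are on GRCm38: 54409 identifiers are in GENCODE M21, 53499 of them at the same position, among them all 10 members. The counting program and its use of strand are not given in the sources used here. No column of values was left unused.

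FPKM times gene length gave whole reads in all retinas (within 0.01 reads), 18965090 to 26832535 in a retina. To get FPKM, summed reads had been multiplied by a scaling factor, 0.951 to 0.968 for NL and 1.04 to 1.07 for LD. *Cnga3* had the fewest reads of the members in each retina (65 to 186) and so the largest counting error relative to its level. In LD-4 and LD-6 *Opn1mw*, at 141 and 185 reads, was below *Cngb3*, at 201 and 255.

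From the deposited FPKM, log2(FPKM + 0.1) was compared for 24508 genes that reached 0.1 FPKM in 5 or more retinas. The test was limma 3.58.1 in R 4.3.3, with an intensity trend and Benjamini-Hochberg adjustment. It was also run on simulated reads of independent retinas, with the same setting of spread for all genes and both groups. That run does not cover the wide LD spread or the close pairs of retinas seen here. Calls needed an adjusted p under 0.01 and over 2-fold, the thresholds the paper uses. Ratios of 16 gene pairs were compared by two-sided exact permutation over retinas, adjusted over the 16 pairs (2 of them and some listed genes are not reported here) with a threshold of 0.05 (Python 3.11.15, numpy 2.4.6, pandas 2.3.3, matplotlib 3.10.9). Named genes are the 10 members, genes of fixed lists, and the 5 genes whose deviations were most like those of the members, and others are named as looked at later. There were 24 alternatives for the gene tests and 16 for the pairs, and leaving out LD-4 and LD-6 together was chosen after seeing the data. Members, lists and tests were chosen with earlier results of these data known.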

Additional observations from a re-analysis of the deposited data

Results flagged for a closer look

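Of 52 groups of 5 values checked (10 members and 16 gene pairs in each group), 3 held a retina far from the others of its group, where chance gives 2.6, and in each it was LD-8. *Pde6c* was at 18.4 FPKM in LD-8 and at 9.64 to 11.7 FPKM in the other LD retinas. The log2 ratio of *Gnat2* to *Gnat1* was -4.96 in LD-8, the lowest of the LD group. The log2 ratio of *Gnb3* to *Gnb1* was 1.00 in LD-8, against at most 1.52 in the LD group. Without LD-8 the log2 fold change of *Pde6c* was -0.62, in place of -0.48. No explanation was tested.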

How the results depend on the processing

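Over 24 alternatives no member and no rod gene changed direction, and of the 240 values of the members 213 stayed on the same side of the call rule. Without the factor per retina the median log2 fold change of all genes moved by 0.12, with TPM by 0.11 and with limma-voom on the recovered reads by 0.13, and the members moved with it. *Gnb3* was at 2.01 with quantile normalization. The counts of all genes called were 1595 (582 lower, 1013 higher), 816 (312, 504) with a pseudocount of 1, and 6818 (3275, 3543) at an adjusted p under 0.05 with no minimum fold, where 8 members were lower. With at least 1 FPKM required, 664 genes were higher. With the closest pairs averaged 371 genes and 1 member were lower and 0 members higher, and 0 of 16 gene pairs passed in the exact permutation test, with a smallest adjusted p of 0.0508 and 9 pairs at an unadjusted p under 0.05. Without LD-4 and LD-6, 368 genes were lower. With differences of medians 0 pairs passed, with a smallest adjusted p of 0.0635, and 12 had an unadjusted exact p under 0.05. The exact p of this test on medians cannot go below 0.0476 here, so it could hardly pass after adjustment. Leaving out 1 retina at a time gave 1379 to 1603 genes called, 469 to 610 lower and 910 to 993 higher, 3 to 5 members lower, 1 to 1 higher, and 10 to 12 pairs.

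The 4 replicate numbers shared by the groups do not pair the retinas: correlations of same-numbered deviations were 0.057, 0.066, -0.012 and -0.089. With the number as a replicate block over these 8 retinas, 808 genes (258 lower, 550 higher) and 1 member lower and 0 higher were called. Without the block the same retinas gave 369 genes and 1 member lower. The exact sign-flip over the 4 pairs of retinas passed 0 gene pairs, since its p cannot go below 0.125. The causes of these differences were not tested.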
